A study of Mus musculus with 12 samples.

Results

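The clustered protocadherins lie on mouse chromosome 18 in 3 neighbouring groups of genes, and their open chromatin was compared here between embryonic stem cells (mESCs) and embryonic fibroblasts (MEFs) of the mouse. The gene list holds every GENCODE M21 gene (GRCm38) on chromosome 18 whose symbol begins with Pcdha, Pcdhb or Pcdhg. These are 58 genes, 14 in the alpha, 22 in the beta and 22 in the gamma subcluster, and they carry 57 distinct symbols because Pcdha11 is used for 2 gene identifiers. The members are the accessible regions (peaks) in the 1 Mb window around these genes, from 36948114 to 37883916 in the set made from BGI reads, each given to the listed gene with the nearest transcription start site (TSS). They number 76 of 91354 peaks in the set made from BGI reads and 79 of 87027 in the set made from Illumina reads. MEFs were sorted as Thy1+ and mESCs as Thy1-/Ssea1+/Epcam+, all on a C57/Bl6 background, with no further genotype or treatment given. There were 3 Omni-ATAC-seq libraries of each cell type, MEFs 1, 2 and 4 and mESCs 1, 3 and 5. Both a DNBSEQ-G400 (BGI) and a HiSeqX10 (Illumina) instrument read every library, so the platforms are technical repeats and not independent samples. The study's text calls the 3 libraries of a cell type biological replicates, but the labels do not tie them to separate embryos or cultures, so the p-values measure the spread between these libraries, whatever its source.

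Protocadherins are cadherin-like adhesion molecules of the cell surface, known above all from neurons. Each alpha and gamma gene contributes a long variable exon with its own promoter, which is spliced to exons shared by the whole subcluster, whereas each beta gene is a single coding exon. Neurons switch on a small and variable choice of the alternate genes, a choice tied to CTCF, cohesin and promoter DNA methylation, while the C-type genes (Pcdhac1, Pcdhac2, Pcdhgc3, Pcdhgc4 and Pcdhgc5) are used more evenly.

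ATAC-seq counts how often a transposase cut within a peak. Levels are given as CPM, the reads in a peak per 1000000 reads in all peaks of the set, and all member peaks of these 2 sets are 502 bp wide, so that levels can be compared between peaks. The BGI samples held 15860985 to 21662775 reads in peaks. Member peaks took 9689, 9911 and 10364 of these reads in the MEF samples and 13411, 14600 and 14412 in the mESC samples, always in the order of libraries 1, 2, 4 and 1, 3, 5. The labels were checked at promoters: 7 of 8 mESC markers had a promoter peak and all 7 were higher in mESCs, whereas 9 of 9 fibroblast markers were lower there. Epcam and Thy1, on which the cells were sorted, are among them. Of 10 neural markers, 6 had a promoter peak, and 3 of these (Elavl3, Stmn2 and Neurod1) were higher and Syt1 was lower in mESCs. Their summed level was 83.4 to 94.1 CPM in MEFs and 116 to 126 CPM in mESCs. Dcx, Sox10 and Rbfox3 were among those with none. Of 5 endothelial and blood markers, 3 had a promoter peak, and these went different ways. Cd68 was higher in mESCs (11.1 ± 3.03 CPM in MEFs and 53.8 ± 3.83 CPM in mESCs, SD, n = 3), Pecam1 was lower (5.90 ± 1.35 and 0.883 ± 0.152 CPM) and Kdr was not called (14.5 ± 1.64 and 14.2 ± 1.26 CPM), while Cdh5 and Ptprc had no promoter peak. Their summed level, 26.5 to 37.5 CPM in MEFs and 63.2 to 72.8 CPM in mESCs, follows Cd68. The part of these markers in the results below was not tested. In bulk libraries, fewer cells with an open site and a less open site in every cell cannot be told apart.

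On BGI, 57 of 76 members were higher in mESCs and 13 were lower (edgeR, Benjamini-Hochberg adjusted p under 0.05), against 40.9% and 43.2% of all peaks tested. The members' median log2 fold change was 1.75, and 37 were higher and 2 lower by 4-fold or more, against 23.8% and 22.2% of all peaks. In every called member the 3 mESC samples lay wholly above or wholly below the 3 MEF samples, a separation shown upward by 42.9% and downward by 42.2% of all peaks. On Illumina, 58 of 79 were higher and 14 lower, against 42.1% and 42.4% of all peaks, with a median log2 fold change of 1.64. The groups there did not overlap in 58 upward and 13 downward members (43.7% and 41.8% of all peaks). The sum over all members was 447, 493 and 516 CPM in the BGI MEF samples and 846, 863 and 895 CPM in the mESC samples. How a peak entered the set bears on these counts and sums, which are given as a description, because a peak found only in mESCs had to be higher there. Folds of peaks on the list of 1 cell type only are therefore given with their SE and no p-value, as a description. Of the 76 members, 48 (63.2%) overlapped only the deposited mESC list by 50% or more of their width, 21 overlapped the lists of both cell types and 7 only the MEF list. Among all BGI peaks, 36.4% overlapped only the mESC list. Of the 48 members, 47 were called higher, whereas the 21 on both lists divided into 10 higher and 9 lower, with a median log2 fold change of -0.15.

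The subclusters differed in where their peaks lay. Of 76 members, 26 lay within 1 kb of a listed TSS, 24 had their centre in the long variable coding exon of a listed gene, 8 lay inside the neighbouring gene Diaph1 and 18 lay elsewhere. These classes were drawn up after the values had been seen and carry no test. A promoter peak was present for 20 of 22 gamma genes, for 4 of 14 alpha genes and for 0 of 22 beta genes, and a variable-exon peak for 10 gamma, 4 alpha and 10 beta genes. All 5 C-type genes had a promoter peak. Neither kind of peak was present for 8 alpha and 12 beta genes, whereas every gamma gene had at least 1 of them. Illumina gave promoter peaks for 21 gamma genes, 5 alpha genes and 1 beta gene, Pcdhb1, whose peak was at 1.07, 1.59 and 0.394 CPM in MEFs and 5.50, 5.90 and 7.13 CPM in mESCs.

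**Figure D1:**
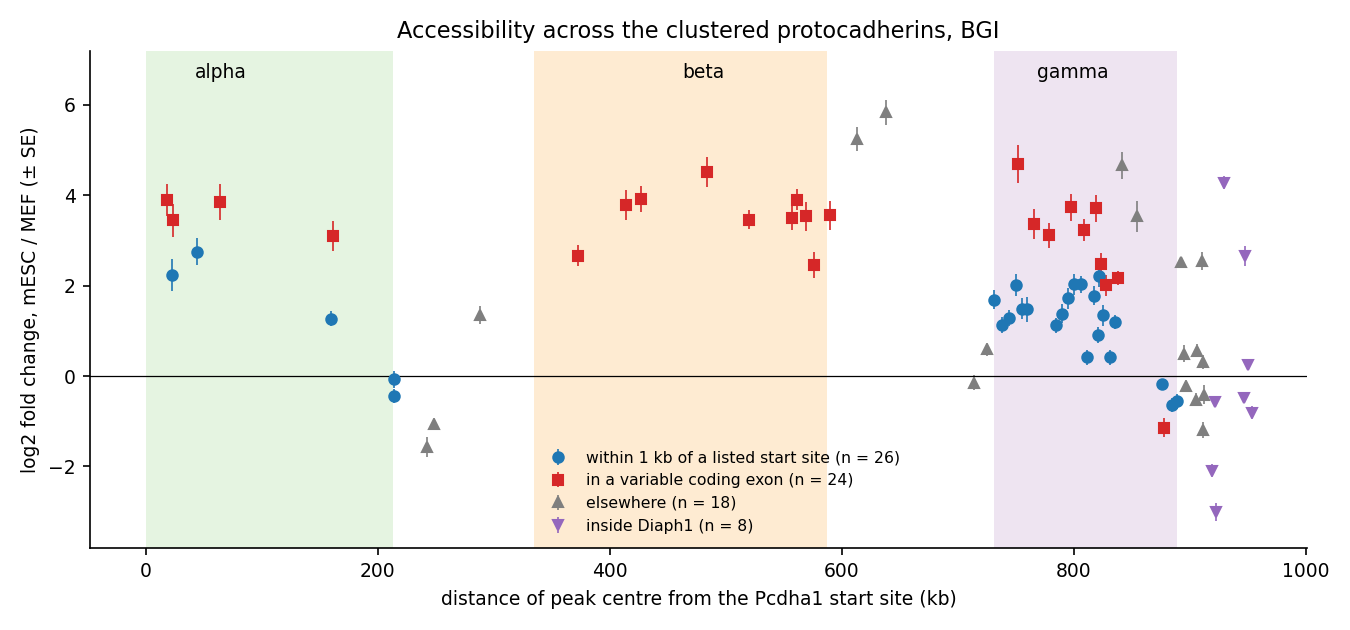
Log2 fold change of mESC over MEF (± SE, edgeR, 3 libraries per cell type, BGI) for the 76 member peaks, against the distance of the peak centre from the Pcdha1 start site in kb. Shading spans the first to the last start site of each subcluster. Variable-exon peaks of alternate genes (squares) lie between 2.01 and 4.69, promoter peaks of alternate genes (circles) lie between 0.42 and 2.75, and the promoters of the C-type genes at the alpha and gamma ends lie at or below 0 except for Pcdhac1.

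All 20 promoter peaks of alternate genes were higher in mESCs on BGI (27.5% of the 22974 promoter peaks in the set were), with log2 fold changes of 0.42 to 2.75 and a median of 1.49. Their sum was 71.0, 71.0 and 75.5 CPM in MEFs and 197, 195 and 189 CPM in mESCs, a ratio of means of 2.67. On Illumina 23 of 23 were higher (27.9% of promoter peaks), with a ratio of 2.81. These counts are no support for a difference, because 17 of the 20 on BGI and 20 of the 23 on Illumina overlapped only the mESC list and so had to be higher. Among the 8 BGI promoter members on both lists, C-type genes included, 4 were higher and 3 lower. Of the BGI 20, 18 belonged to the gamma subcluster and 2 to the alpha subcluster. In the gamma subcluster the A-type and B-type genes, named for their sequence families, alternate along the chromosome. Pcdhga9, at 37736641 to 37737142 and on the mESC list only, had 3.05, 2.93 and 2.29 CPM in MEFs and 11.4, 11.8 and 12.3 CPM in mESCs. Its groups were well apart, and the log2 fold change was 2.03 ± 0.20 SE. Pcdhgb5, a B-type gene likewise on the mESC list only, had 1.94, 1.94 and 2.14 CPM in MEFs and 7.57, 9.28 and 8.88 CPM in mESCs (2.03 ± 0.22). Pcdhga12, the last of the alternate gamma genes, had the highest mean mESC level of these promoters. On both lists, it stood at 6.09, 5.91 and 8.07 CPM in MEFs and 16.8, 16.4 and 15.1 CPM in mESCs, and rose by 1.20 ± 0.16 on the log2 scale (edgeR adjusted p = 1.50e-06). The A-type and B-type promoters overlapped in their changes, and the 3 smallest named changes on BGI were at B-type genes. On Illumina the A-type Pcdhga5 (0.84) changed less than the B-type Pcdhgb7 (0.98). A difference between the types was not tested.

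The weakest changes among the alternate promoters were those of Pcdhgb6 and Pcdhgb8, the latter annotated as a polymorphic pseudogene. Pcdhgb6 had 6.92, 9.29 and 9.71 CPM in MEFs and 13.0, 12.8 and 10.4 CPM in mESCs (0.42 ± 0.17, edgeR adjusted p = 0.0303). Pcdhgb8 had 7.29, 7.31 and 7.67 CPM in MEFs and 12.2, 8.87 and 10.2 CPM in mESCs and changed by the same 0.42 ± 0.17 (edgeR adjusted p = 0.0295). In both genes the groups did not overlap, but MEFs already had the highest means of all alternate promoters. Without mESC 1 the Pcdhgb6 call was lost (0.36, edgeR adjusted p = 0.103), as it was without MEF 1 (0.33, adjusted p = 0.0926) or mESC 3 (0.40, adjusted p = 0.0731). The Pcdhgb8 call was lost without mESC 1 (0.29, edgeR adjusted p = 0.165), MEF 2 (0.41, adjusted p = 0.0615) or mESC 5 (0.44, adjusted p = 0.0541). On Illumina the log2 fold changes were 0.39 ± 0.14 and 0.58 ± 0.16 (edgeR adjusted p = 0.0142 and 0.00253). The Pcdhgb6 call was lost there without MEF 2 or mESC 5 (0.32 and 0.34, edgeR adjusted p = 0.0683 and 0.0665).

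The other alternate gamma promoters rose too, the most at a second Pcdhgb7 peak 896 bp after its TSS (2.21 ± 0.25), which had 1.38, 1.89 and 1.49 CPM in MEFs and 7.63, 6.50 and 9.13 CPM in mESCs. Pcdhga1, Pcdhga2 and Pcdhga3, the first 3 of the subcluster, had mean levels of 3.09, 4.73 and 4.72 CPM in MEFs and 10.4, 10.9 and 12.1 CPM in mESCs, with log2 fold changes of 1.69, 1.14 and 1.29. Pcdhga7 rose by 1.12 ± 0.17 and Pcdhga8 by 1.72 ± 0.23 on the log2 scale. Pcdhgb1 (2.01 ± 0.24), Pcdhgb4 (1.38 ± 0.21), Pcdhga10 (1.78 ± 0.21) and Pcdhgb7 (0.92 ± 0.18) rose as well, each with non-overlapping groups. Neighbours could differ widely, as Pcdhga9 and Pcdhgb6 did, which lie next to each other and near opposite ends of this range.

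Alpha promoters were rarely in the peak set, and those of alternate genes entered it through the mESC list only. Pcdha7, at 36974090 to 36974591, had 1.34, 1.24 and 0.597 CPM in MEFs and 7.31, 8.40 and 6.96 CPM in mESCs, the largest change of any promoter member on BGI (2.75 ± 0.30). Pcdha4 had 1.57, 0.994 and 0.498 CPM in MEFs and 5.49, 4.85 and 5.03 CPM in mESCs (2.24 ± 0.35). Both peaks were centred just inside the coding exon, 538 and 558 bp after the TSS, and an antisense gene, Gm38225, starts nearer to the Pcdha4 peak than Pcdha4 itself does. On Illumina another alternate alpha gene, Pcdha8, had a promoter peak too, at 0.233, 0.397 and 0.443 CPM in MEFs and 3.63, 5.37 and 5.21 CPM in mESCs.

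**Figure D2:**
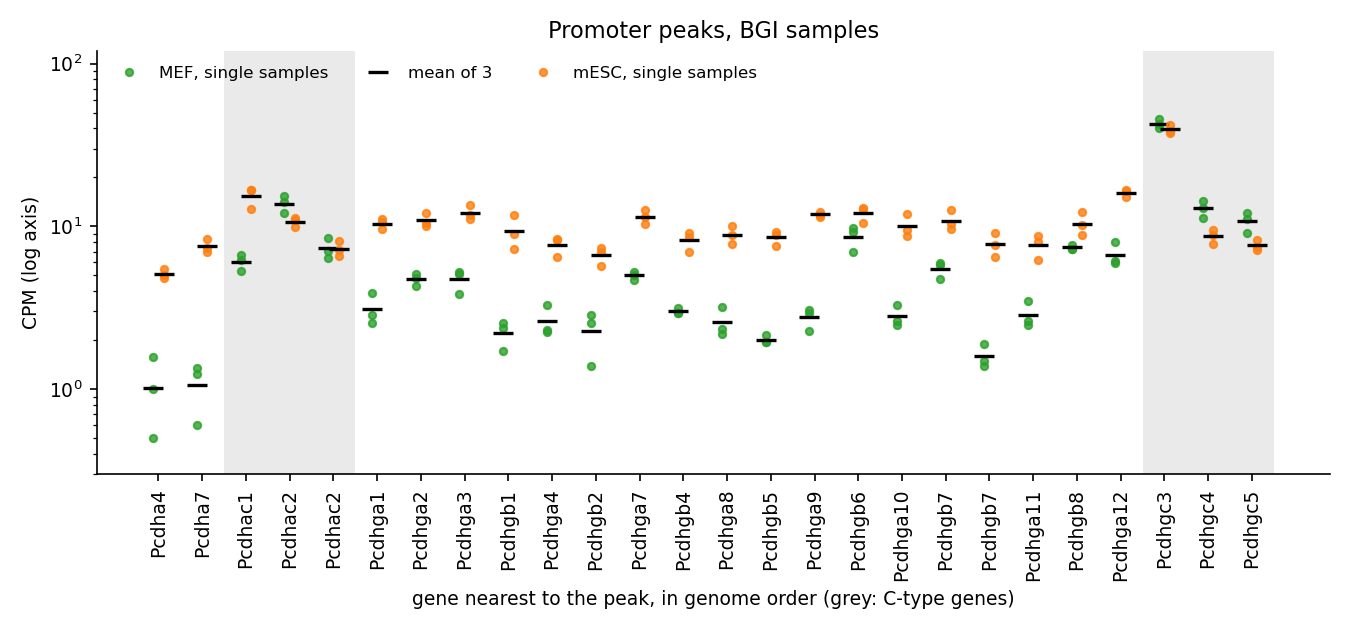
CPM (log axis) of the 26 promoter peaks in each BGI sample, ordered along the chromosome, with MEF samples left and mESC samples right at each gene and bars for the mean of 3. At the 20 alternate promoters the mESC samples lie above the MEF samples, and in the grey bands of the C-type genes they do so only at Pcdhac1.

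The C-type promoters followed no common direction, with 1 of 6 peaks higher and 3 lower on BGI (27.5% and 42.1% of all promoter peaks) and 1 of 8 higher and 4 lower on Illumina (27.9% and 43.8%). Pcdhac1, at 37089707 to 37090208, had 6.23, 6.66 and 5.33 CPM in MEFs and 12.7, 16.7 and 16.6 CPM in mESCs, and rose by 1.27 ± 0.17 on the log2 scale (edgeR adjusted p = 1.68e-06). Pcdhgc4 had 11.3, 12.9 and 14.4 CPM in MEFs and 9.46, 7.81 and 8.88 CPM in mESCs, and Pcdhgc5 had 11.1, 12.1 and 9.11 CPM in MEFs and 7.19, 8.28 and 7.45 CPM in mESCs. Both were lower in mESCs with non-overlapping groups, by log2 fold changes of -0.63 ± 0.15 and -0.56 ± 0.17 (edgeR adjusted p = 0.00113 and 0.00588). Pcdhgc3, at 37806096 to 37806597, was the most accessible promoter of the locus, with 40.0, 45.4 and 42.6 CPM in MEFs and 38.6, 42.1 and 37.5 CPM in mESCs. Its groups overlapped and it did not pass the test (-0.18 ± 0.09, edgeR adjusted p = 0.0840), though it did without mESC 3 (-0.20, edgeR adjusted p = 0.0383). Of the pair of peaks at Pcdhac2, that at 37143625 had 12.05, 15.3 and 14.1 CPM in MEFs and 9.90, 11.2 and 10.9 CPM in mESCs and was lower (-0.44 ± 0.15, edgeR adjusted p = 0.0102). That call was lost without MEF 2 (-0.36, edgeR adjusted p = 0.0581). The second Pcdhac2 peak, on the MEF list only, was at -0.07 ± 0.19 and was not called. Summed over the 6 C-type promoter peaks, levels were 87.1, 101 and 92.6 CPM in MEFs and 84.5, 94.2 and 88.5 CPM in mESCs, which overlapped.

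The second class of peaks lay in the variable coding exons. Of 24 such peaks, 23 were higher in mESCs and 1 was lower, against 40.9% and 43.2% of all BGI peaks. Among BGI peaks with no TSS within 1 kb the shares were 45.4% and 43.6%. Not all of the 24 belong to that class, because unlisted genes start within 1 kb of the Pcdha4 and Pcdhga12 exon peaks. Unlisted start sites were also the nearest to the exon peaks of Pcdhga8 (Gm37165) and Pcdhgc3 (BC037039). The median log2 fold change was 3.48, and 23 were higher by 4-fold or more (23.8% of all peaks). Only 1 of the 24 overlapped the MEF list, so that 23 had entered the set through mESCs and had to be higher there, all 22 in alternate genes among them. The counts, sums and folds of these exon peaks therefore describe them and are no support for a difference. Summed over the 22 in alternate genes, levels were 21.3, 23.8 and 20.2 CPM in MEFs and 185, 199 and 207 CPM in mESCs, a ratio of means of 9.07. The same sum over the 20 Illumina peaks of this class gave a ratio of 8.85. In alternate genes the peak centres lay 1412 to 2706 bp after the gene's own TSS, with a median of 2233 bp, and at 54.3% to 92.8% of the way through the coding stretch. In 21 of the 22 the centre lay beyond 75%, the exception being Pcdha4 at 54.3%. These are positions inside protein-coding sequence, 169 to 535 bp before the end of the coding exon in the beta and alternate gamma genes.

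**Figure D3:**
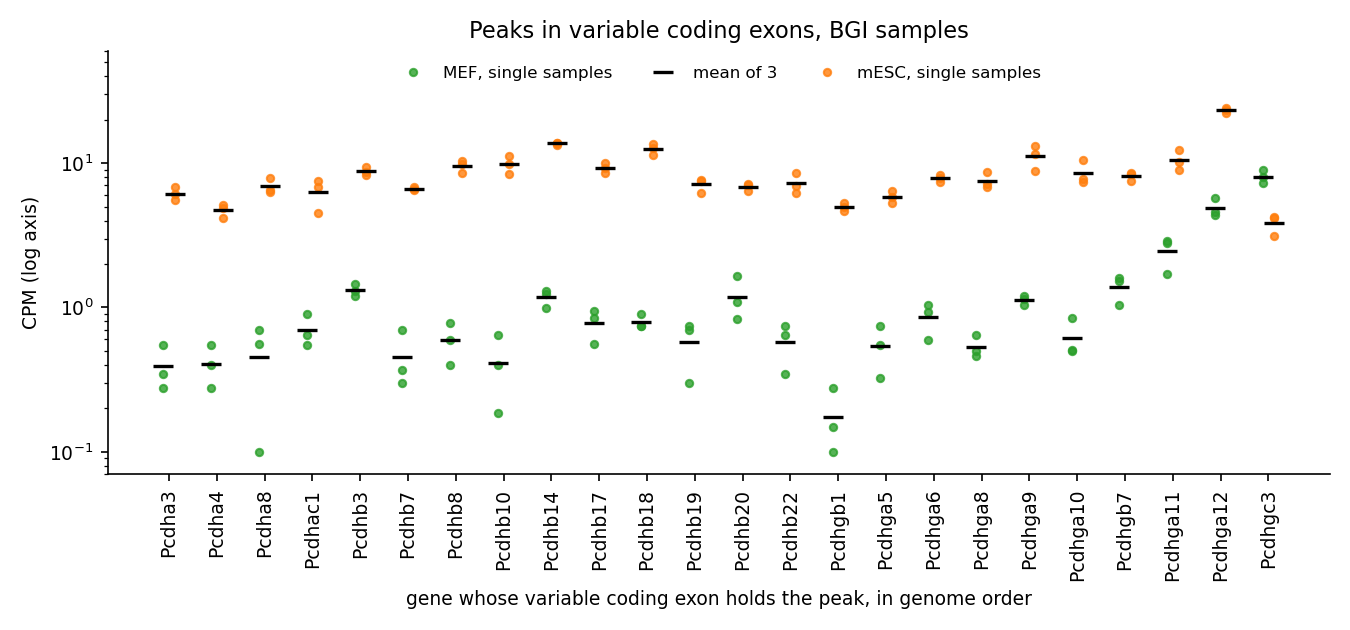
CPM (log axis) in each BGI sample of the 24 peaks centred in a variable coding exon, by gene along the chromosome, with bars for the mean of 3. In 23 genes the mESC samples lie above the MEF samples, most of which are below 2 CPM, and Pcdhgc3 at the right shows the opposite order.

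Beta genes carried 10 of these peaks, and all 10, found through mESCs, were higher there (45.4% of BGI peaks with no TSS within 1 kb). Pcdhb10, at 37413828 to 37414329, had 0.185, 0.646 and 0.398 CPM in MEFs, which is 4, 13 and 8 reads, and 8.39, 9.87 and 11.2 CPM in mESCs. It rose by 4.51 ± 0.33 on the log2 scale. Pcdhb8 had 0.785, 0.398 and 0.597 CPM in MEFs and 8.57, 9.82 and 10.4 CPM in mESCs (3.92 ± 0.28). Pcdhb18 had 0.739, 0.895 and 0.747 CPM in MEFs and 12.7, 13.5 and 11.4 CPM in mESCs (3.91 ± 0.23). In each of these the lowest mESC sample was far above the highest MEF sample. The largest mean mESC level of the 10 was that of Pcdhb14, at 13.7, 13.4 and 13.9 CPM, and the smallest change was that of Pcdhb20, at 0.831, 1.64 and 1.10 CPM in MEFs and 7.12, 6.45 and 7.02 CPM in mESCs (2.46 ± 0.28). These last values were picked as the extremes after they had been seen. The nearest-TSS rule gives the peak inside the Pcdhb17 exon to Pcdhb18, its downstream neighbour, and the peak inside the Pcdhga10 exon to Pcdhgb7.

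Alternate alpha genes carried 3. Pcdha3, at 36948114 to 36948615, had 0.277, 0.547 and 0.349 CPM in MEFs and 6.12, 6.80 and 5.53 CPM in mESCs (3.90 ± 0.35). Pcdha8 had 0.554, 0.0994 and 0.697 CPM in MEFs, with 2 reads in MEF 2, and 6.56, 7.86 and 6.27 CPM in mESCs (3.85 ± 0.39). The alternate gamma genes carried 9, which entered through mESCs too and were higher there (40.9% of all BGI peaks). Pcdhgb1, at 37682300 to 37682801, had the fewest MEF reads of all members, with 6, 3 and 2, or 0.277, 0.149 and 0.0996 CPM. In mESCs it had 4.98, 4.67 and 5.28 CPM, and its log2 fold change of 4.69 ± 0.42 rests on those few reads. At the downstream end of the row MEF levels were higher. Pcdhga11 had 2.91, 2.78 and 1.69 CPM in MEFs and Pcdhga12 had 4.62, 5.77 and 4.38 CPM, beside 9.02, 10.2 and 12.2 CPM and 22.3, 23.4 and 24.2 CPM in mESCs. Among the C-type genes, the exon peak of Pcdhac1 was higher in mESCs (3.10 ± 0.33) and that of Pcdhgc3, on the MEF list only, was lower. The latter had 8.03, 7.26 and 8.91 CPM in MEFs and 4.16, 3.13 and 4.22 CPM in mESCs (-1.14 ± 0.21), and the antisense gene BC037039 starts nearer to it than Pcdhgc3 does.

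In 8 alternate genes on BGI a promoter peak and an exon peak could be set side by side, with the more accessible promoter peak taken for Pcdhgb7. The exon peaks entered through mESCs alone, and so did the promoter peaks except that of Pcdhga12. Such entry favours large folds, so the comparison is a description. The log2 fold change of the exon peak was the larger in 8 of 8, by 0.67 to 2.68 with a median of 1.39. Against the second promoter peak of Pcdhgb7 (2.21) its exon peak (2.48) differed by less than that range. In Pcdhgb1 it was 4.69 at the exon and 2.01 at the promoter, and in Pcdhga11 it was 2.01 and 1.35. In mESCs the exon peak was the more accessible one in Pcdhga11 (10.5 against 7.64 CPM on average) and Pcdhga12 (23.3 against 16.1 CPM), and the less accessible one in Pcdhgb1 (4.98 against 9.32 CPM), as it was in the remaining 5. On Illumina, where the 8 genes were not all the same ones, the exon change was the larger in 7 of 8, with Pcdha8 the exception (3.62 at the exon and 3.66 at the promoter).

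The consensus peaks leave out sites that were called in a sample but not kept, so the calls of the authors' peak caller were read for all 58 genes. A summit was counted where its -log10 p was at least 10. Within 1 kb of the TSS, all 3 BGI mESC samples had such a summit at 22 of 22 gamma genes, 5 of 14 alpha genes and 1 of 22 beta genes, and the 3 MEF samples at 10, 2 and 0. Beyond 75% of the variable coding exon, all 3 mESC samples had a summit at 14 of 22 beta genes, 11 gamma genes and 4 alpha genes. The 3 MEF samples had one at Pcdhga12 alone, and in no beta or alpha gene did any BGI MEF sample have one. On Illumina only 1 of the 3 MEF samples had the Pcdhga12 summit. Beta genes whose exon was called in every BGI mESC sample included Pcdhb12, Pcdhb13, Pcdhb15 and Pcdhb21, which have no peak in the BGI set. The accessible beta exons in mESCs were thus more numerous than the 10 with a consensus peak, and on Illumina the corresponding number was 16 of 22. The TSS summit called in 3 of 3 samples was that of Pcdhb1.

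Along the coding exons of alternate genes, the summits were unevenly placed. In the beta genes, 18, 19 and 16 of 28, 26 and 21 summits lay beyond 75% of the coding stretch in mESCs 1, 3 and 5 on BGI, and 0, 1 and 0 lay before 25%. In the gamma genes, 13, 14 and 13 of 32, 36 and 36 lay beyond 75% and 15, 16 and 18 before 25%, the end that lies next to the TSS. Between 25% and 50%, no BGI sample had more than 1 summit in any subcluster. In MEFs the beta and alpha exons had 0 summits in every BGI sample, and the gamma exons had 3, 2 and 1. The Illumina mESC samples placed 22, 20 and 21 of 32, 25 and 27 beta summits beyond 75%.

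**Figure D4:**
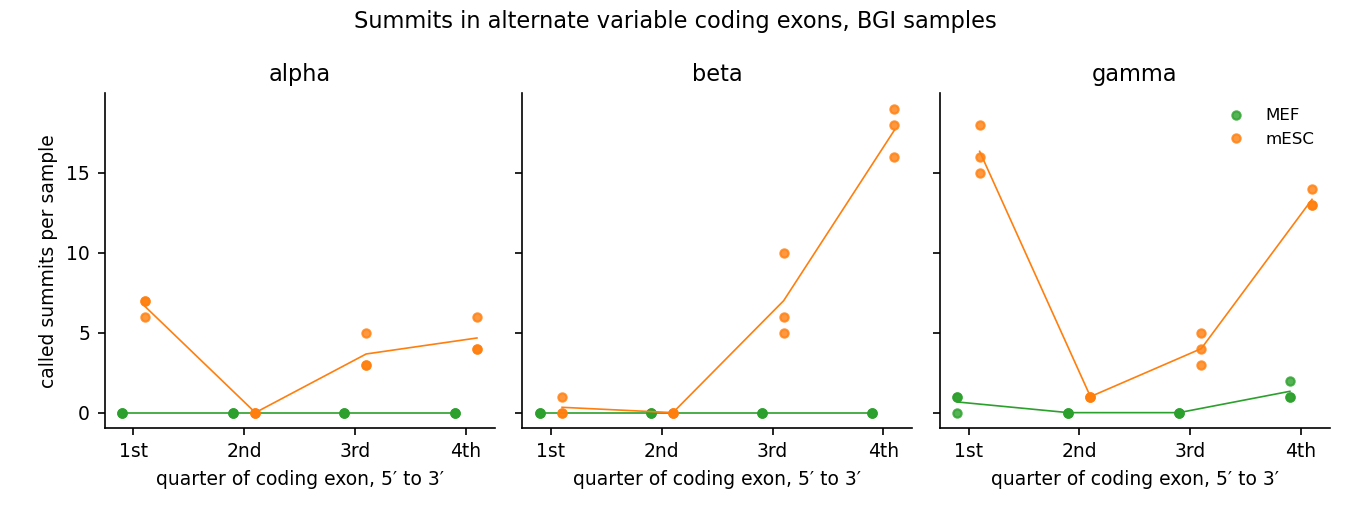
Called summits (-log10 p of at least 10) per BGI sample in each 25% stretch of the variable coding exons of alternate alpha, beta and gamma genes, from the 5′ to the 3′ end, with points for samples and lines for the mean of 3. Beta summits in mESCs rise to 16 to 19 in the last 25%, gamma summits form a 5′ and a 3′ group, and MEF samples stay at 2 or fewer.

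Peak classes also differed in base composition, which the member rule did not use. The variable-exon peaks had a median GC content of 56.6%, and the 20 alternate promoters had 48.3%, below the 59.96% of all BGI promoter peaks and near the 51.0% of all peaks. The 6 C-type promoters had 59.5%. The ratio of observed to expected CpG had a median of 0.60 at alternate promoters and 0.74 at C-type promoters, against 0.68 at all promoter peaks. At the variable-exon peaks it was 0.42, against 0.24 at all peaks with no TSS within 1 kb. A core of the consensus letters bound by CTCF was searched on both strands and was found in 19 of 76 members (25.0%), against 19.0% of all BGI peaks. It was present in 6 of 10 beta exon peaks, 9 of 24 variable-exon peaks and 4 of 26 promoter peaks. Such a match describes letters only and is not a bound site.

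The beta exons resemble one another closely, which bears on how reads can be placed. When the middle 200 bases of one beta exon peak were aligned within another, identity was 85.0% in the median of 45 pairs, with a range of 54.5% to 94.0%. For the 7 gamma A exon peaks the median was 57.5% and for the 8 peaks inside Diaph1 it was 53.5%. The authors kept uniquely placed reads, so reads from near-identical stretches may be missing from these counts or may be counted at the wrong copy, in MEFs and mESCs alike. The share of such reads was not tested.

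Beyond the genes' own promoters and exons, the widest differences of the locus were those of a pair of peaks on the mESC list only. The pair stood between the beta and gamma subclusters, in the interval from Pcdhb22 to Pcdhga1, with centres 25859 and 50506 bp after the Pcdhb22 TSS. That at 37568127 to 37568628 had 0.185, 0.298 and 0.199 CPM in MEFs, from 4, 6 and 4 reads, and 13.9, 13.5 and 14.3 CPM in mESCs. Its log2 fold change of 5.83 ± 0.27 was the largest of the members on BGI. The peak at 37543480 to 37543981 had 0.508, 0.199 and 0.398 CPM in MEFs and 15.6, 14.3 and 15.3 CPM in mESCs (5.25 ± 0.27). Both were nearly absent from MEFs, and on Illumina their log2 fold changes were 5.40 ± 0.27 and 6.38 ± 0.35. The Illumina value at 37543480 lay between 5.78 and 7.19 when 1 library was left out. A peak on the mESC list only, 6047 bp after the Pcdhga12 TSS, at 37771377 to 37771878, had 0.323, 0.249 and 0.498 CPM in MEFs and 8.89, 10.8 and 9.13 CPM in mESCs (4.66 ± 0.30). The strongest mESC level of all members was at a peak on both lists, at 37822420 to 37822921, 3157 bp after the Pcdhgc5 TSS. It had 7.71, 9.59 and 8.12 CPM in MEFs and 49.2, 50.6 and 52.9 CPM in mESCs (2.52 ± 0.11, edgeR adjusted p = 1.91e-12).

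Between the alpha and beta subclusters the direction was mixed. After the TSS of Pcdhac2, the peaks at 37172236 and 37178279 were lower in mESCs, the former being on the MEF list only. The first had 7.71, 11.7 and 10.5 CPM in MEFs and 3.53, 2.78 and 4.29 CPM in mESCs (-1.56 ± 0.22), and the second had 18.003, 20.6 and 20.2 CPM in MEFs and 9.20, 9.22 and 10.996 CPM in mESCs (-1.07 ± 0.13). Before the TSS of Pcdhb1, the peak at 37218006 was higher in mESCs, with 4.89, 4.47 and 5.73 CPM in MEFs and 10.2, 13.8 and 16.4 CPM in mESCs (1.35 ± 0.19). The first and the last of these were named after their values were seen.

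The members downstream of the gamma genes were given to Pcdhgc5, which received 18 peaks, and 8 of them lay inside Diaph1, a formin that nucleates actin filaments. Here 3 were higher and 5 lower in mESCs, beside 45.4% and 43.6% of BGI peaks with no TSS within 1 kb. The peak at 37860009 to 37860510, on the mESC list only, had 1.71, 2.39 and 1.89 CPM in MEFs and 40.0, 37.8 and 44.4 CPM in mESCs (4.28 ± 0.15). The peak at 37852550 to 37853051, on the MEF list only and named after its values were seen, had 18.2, 17.0 and 22.1 CPM in MEFs and 2.96, 1.66 and 2.86 CPM in mESCs (-3.01 ± 0.20). Their sum over the 8 peaks was 125, 129 and 145 CPM in MEFs and 132, 120 and 140 CPM in mESCs, which overlapped. In all, 29 of the 76 members had the TSS of an unlisted gene nearer than that of any listed one. The nearest genes were Mir6979 for 9, Gm29994 for 5, Gm26672 and Gm38182 for 3 each, Gm38225 and Gm10544 for 2 each, and 3222401L13Rik, BC037039, Gm37165, Gm38097 and Taf7 for 1 each. Of the 29, 15 were higher (51.7%) and 10 lower (34.5%), beside 40.9% and 43.2% of all BGI peaks. The Taf7 promoter, which serves a subunit of the general transcription factor TFIID, had 8.17, 10.2 and 11.7 CPM in MEFs and 10.1, 9.58 and 8.63 CPM in mESCs and was not called on BGI (-0.15 ± 0.17, edgeR adjusted p = 0.420).

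Other genes of the pathway were read at their promoters, with the most accessible promoter peak standing for the gene. Across all BGI promoter peaks, 27.5% were higher and 42.1% lower in mESCs, with a median log2 fold change of -0.16. Of 12 nonclustered protocadherins, which are single genes elsewhere with similar adhesion domains, 10 had a promoter peak, and among these 2 rose and 7 fell in mESCs, with a median of -0.53. Pcdh18 fell from 21.5 ± 2.20 to 5.74 ± 1.44 CPM (SD, n = 3) and Pcdh7 from 25.6 ± 2.97 to 7.96 ± 1.39 CPM, while Pcdh1 rose from 12.5 ± 0.72 to 17.9 ± 2.28 CPM and Pcdh8 from 25.5 ± 1.87 to 31.6 ± 2.37 CPM. Of 20 regulators of clustered protocadherin choice or silencing, 17 had a promoter peak, and among these 3 rose and 7 fell, with a median of -0.17. Stag1, a cohesin subunit, rose from 0.43 ± 0.20 to 10.8 ± 2.06 CPM at its gene-level start. Starts elsewhere in Stag1 were not read, so this peak need not mark its main promoter. Dnmt3a, a de novo DNA methyltransferase, rose from 12.2 ± 0.91 to 24.8 ± 0.92 CPM. Smchd1, a chromatin protein known to silence the cluster, fell from 48.0 ± 0.49 to 29.7 ± 2.89 CPM, and Wiz, a zinc finger partner of the G9a methyltransferase complex, fell from 17.9 ± 0.84 to 11.1 ± 0.82 CPM. Ctcf itself was lower in mESCs (-0.62 ± 0.10, edgeR adjusted p = 2.02e-05) and was named after its value was seen. Of 15 cytoplasmic partners and effectors, all 15 had a promoter peak, and among these 3 rose and 9 fell, with a median of -0.31. The kinase gene Ptk2b rose by 1.19 ± 0.17 and Ret by 0.93 ± 0.16 on the log2 scale, while Prkca was at -0.93 ± 0.12 and Ptk2 at -0.73 ± 0.10. These lists describe accessibility at promoters and not expression.

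The same libraries gave nearly the same picture on Illumina. Of the 76 BGI members, 72 overlapped an Illumina member by at least 50% of their width, and the log2 fold changes had the same sign in all 72. In 64 both platforms made the same call, in 4 neither made a call, and in 4 only 1 platform did. The latter were the Taf7 promoter and the peak at 37842558 (lower on Illumina only) and the peaks at 37835427 (lower on BGI only) and 37880088 (higher on BGI only), the last 3 all given to Pcdhgc5. The median absolute difference in log2 fold change was 0.21 and the largest was 1.13, at the Pcdhb22 peak at 37543480, whose MEF counts were between 4 and 11 on BGI. The interaction of platform with cell type, fitted with the library as a block, was called for 0 of 76 members (0.386% of all peaks) by edgeR. Of these 76, 15 had an unadjusted p under 0.05, and the smallest adjusted p was 0.0965. The members missing from the Illumina set included the exon peaks of Pcdha4 and Pcdhgb1.

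**Figure D5:**
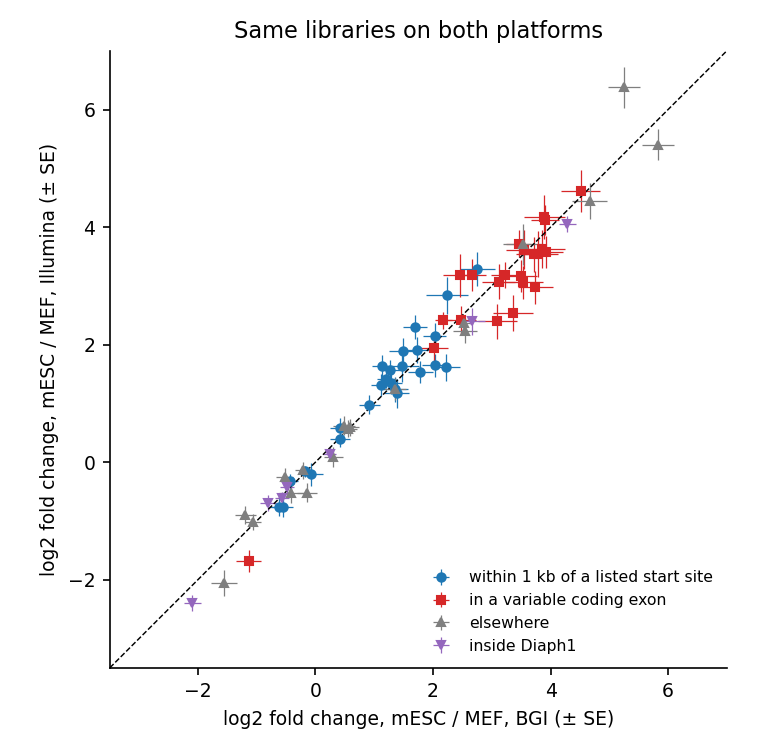
Log2 fold change of mESC over MEF on Illumina against BGI (± SE, edgeR) for the 72 members matched between the peak sets, with the dashed line marking equal values. Both axes come from the same 6 libraries, and the points of all 4 classes follow the line, with the largest departure at the Pcdhb22 peak at 5.25 on BGI and 6.38 on Illumina.

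Within a cell type, the platforms were compared on peak sets joined over both instruments, which held 31 members in MEFs and 76 in mESCs. Without pairing, edgeR called 0 of 31 members in MEFs (4.06% of all peaks) and 0 of 76 in mESCs (3.23% of all peaks). In each cell type 1 member had an unadjusted p under 0.05, and DESeq2 called 0. DESeq2 gave no adjusted p to 4 of the 31 MEF members and 23 of the 76 mESC members, which could not be called. The library numbers pair these samples, and with the library as a block 4 MEF members were higher and 2 lower on BGI (13.9% and 15.3% of all peaks), and 3 mESC members were higher and 2 lower (5.78% and 15.6%). These counts moved with single libraries: with the block, MEFs gave 0 higher and 1 lower without MEF 1, 2 and 1 without MEF 2, and 1 and 4 without MEF 4, and mESCs gave 2 and 3 without mESC 1, 2 and 0 without mESC 3, and 3 and 1 without mESC 5. The promoter of Pcdhac2, the most GC-rich of the called members, was lower on BGI in both cell types. In MEFs its mean was 14.6 ± 1.73 CPM on BGI beside 18.3 ± 1.45 CPM on Illumina (SD, n = 3, log2 difference -0.36 ± 0.08, edgeR adjusted p = 0.000305 with the block). In mESCs it had 14.5 ± 1.33 and 18.1 ± 3.06 CPM (-0.38 ± 0.08, edgeR adjusted p = 4.19e-05 with the block). With a GC offset in the same fit neither passed the test (edgeR adjusted p = 0.716 and 0.732), and 2 MEF members and 1 mESC member were called (13.1% and 8.89% of all peaks). The members higher on BGI included the Pcdhgc5 peak at 37836254 in MEFs (0.25 ± 0.09) and its counterpart at 37836251 in mESCs (0.21 ± 0.08). Both lost their calls with the GC offset (edgeR adjusted p = 0.307 and 0.202). The Pcdhac1 promoter in MEFs, higher on BGI by 0.36 ± 0.13, was called with the block and with the offset (edgeR adjusted p = 0.0378 and 0.0115). All platform differences of the members lay between -0.38 and 0.36 on the log2 scale with the block, far below most differences between the cell types.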

How the data were processed

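Omni-ATAC-seq was measured in 6 libraries, each sequenced on BGI and Illumina, giving 12 samples in 4 groups of 3 taken from the sample titles. Per the study's methods, the authors trimmed Illumina reads from 150 to 100 bp, aligned them with Bowtie2 to mm10 (GRCm38), dropped mitochondrial and duplicate reads, kept uniquely placed reads (mapping quality of 10 or more) and down-sampled to 60 M reads per MEF sample and 45 M per mESC sample. MACS2 calls were made per sample at p 0.01. The deposited peak calls give a score, a fold enrichment as a ratio, and -log10 p- and q-values. The deposited lists keep regions with a normalised score of 3 or more in 2 samples. The deposited tables hold raw read counts per peak. BGI columns carry a platform suffix; columns without it were taken as Illumina because the peak names inside the Illumina calls carry the bare library names. All per-sample columns were used.

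The members and lists were chosen with earlier results of these data known. Members, the nearest listed TSS, promoters (TSS within 1 kb, gene level), GC content and sequence matches were computed from GENCODE M21 and the GRCm38 reference with Python 3.11.15 (pandas 2.3.3, pysam 0.24.0). Sequence of the locus is not printed here. Counts were tested over every peak of a set with the two-sided quasi-likelihood F test of edgeR 4.0.16 in R 4.3.3 (TMM scaling, default expression filter, which removed no member), Benjamini-Hochberg adjusted p under 0.05. SE is the absolute log2 fold change divided by the square root of F. The fits were tested on simulated data. DESeq2 1.42.0, RLE scaling, no filter, library sizes at the down-sampled depths, a log2 threshold of 1, the other platform's samples, other member rules and leaving out each library were alternatives. The interaction and the leave-one-out fits with the block were added after seeing the data. The 20 most accessible promoter peaks, the 10 called non-promoter members of largest change and the most accessible peak of each C-type gene were named by rule on BGI. Other peaks named singly were chosen after their values were seen.

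Library numbers pair the platforms because the same library was read on both. After removal of group means, same-numbered samples correlated between 0.514 and 0.837, and others between -0.676 and 0.298. No pair of samples held identical counts. Depth limits the precision at MEF levels below 1 CPM, which rest on about 20 reads or fewer.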

Additional observations from a re-analysis of the deposited data

How the results depend on the processing

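More members were higher than lower in mESCs under every alternative run, and DESeq2 called 71 on BGI and 72 on Illumina. Leaving out each library in turn gave 67 to 72 called on BGI (54 to 57 higher, 12 to 15 lower) and 70 to 73 on Illumina (57 to 58 higher, 12 to 15 lower). With a log2 threshold of 1, 56 were called on BGI (50 higher, 6 lower) and 55 on Illumina (51 higher, 4 lower). Only the peaks within 1 kb of a listed TSS gave 24 called on BGI (21 higher, 3 lower) and 28 on Illumina (24 and 4), and only those nearest to a listed transcript gave 44 (3 lower) and 46 (4 lower), since fewer members were counted. The second Pcdhac2 peak at 37144336, never called, turned to 0.0786 with library sizes at the down-sampled depths and lay between -0.128 and 0.0552 when a library was left out (above 0 without MEF 2 or mESC 1). With those depths the Pcdhac2 peak at 37143625 also lost its call (-0.29, edgeR adjusted p = 0.0768). No paired analysis was run for mESCs against MEFs, because the labels give no pairing between libraries of different cell types. Between platforms, the replicate block moved the called members from 0 to 6 in MEFs (4 higher, 2 lower) and from 0 to 5 in mESCs (3 and 2), and the block with a GC offset gave 2 (1 and 1) and 1 (0 and 1). With the block and a library left out, MEFs gave 1 to 5 called (0 to 2 higher, 1 to 4 lower) and mESCs 2 to 5 (2 to 3 higher, 0 to 3 lower). Over the named peaks and all alternatives, 366 values on BGI and 345 on Illumina kept their direction and their side of the threshold, 14 and 12 lost a call and 1 and 3 gained one. Low MEF counts limit the precision of the largest fold changes.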
